A study of Mus musculus with 12 samples.

Results

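The genes described here encode the Fc receptors for IgG of mouse macrophages. They are the activating receptors Fcgr1, Fcgr3 and Fcgr4, the common gamma chain Fcer1g, the inhibitory receptor Fcgr2b and the neonatal Fc receptor Fcgrt. They were chosen by name, as the rows of the deposited raw count table whose Ensembl identifiers map to these symbols, and are 6 of the 57010 genes in that table. All 6 were found and all 6 passed the filter on low counts. They were measured in large peritoneal macrophages, the resident F4/80-high, MHC class II-low macrophages of the mouse peritoneal cavity, taken by cell sorting from female mice. WT naive and Tim4KO naive cells came from unchallenged wild-type mice and from unchallenged mice lacking Tim4, a receptor for phosphatidylserine on dying cells. WT ID8 and Tim4KO ID8 cells came from such mice 24 h after intraperitoneal injection, at 8 weeks of age, of ID8ZGO, a form of the ID8 mouse ovarian tumour line that carries ZsGreen and OVA. The age of the naive mice is not given in the sources used here. Each of the 4 groups had 3 RNA-seq libraries. The ID8 libraries held only macrophages positive for ZsGreen, while the naive cells had no such selection, so an effect of challenge and an effect of tumour uptake cannot be told apart. The design asked what phagocytosis changes in these cells with and without Tim4. How the Tim4 allele was made, and in which cells it is lost, are also not given.

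Fc receptors bind the constant part of antibodies and so let a macrophage engulf or kill an antibody-coated cell. Activating receptors for IgG signal through the immunoreceptor tyrosine-based activation motif (ITAM) of the gamma chain, on which Src-family kinases and Syk act, whereas the inhibitory receptor carries an inhibitory motif (ITIM) of its own that recruits phosphatases. The balance between the activating and the inhibitory receptors sets how strongly a macrophage answers IgG, while the neonatal Fc receptor works inside the cell, where it rescues IgG from the lysosome and sorts immune complexes.

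Library totals ran from 7358559 to 23170244 counts, so that 3 counts corresponded to 0.129 to 0.408 CPM (counts relative to a common library total), well under the lowest level of any of the 6 genes. Timd4, the gene for Tim4, had 9685 to 21320 counts in the WT libraries and 20 to 128 in the Tim4KO libraries, as the labels imply. Defining genes of large peritoneal macrophages were present in every library, but did not all move the same way with challenge. Gata6 was at 119 to 188 CPM in naive and 164 to 193 CPM in ID8 libraries, and Adgre1 at 2545 to 3769 and 3917 to 6289 CPM. Alox15 was lower, at 9797 to 13059.8 and 4746 to 8122 CPM, as was Prg4, at 2771 to 4068 and 2065 to 2821 CPM. The sum of 12 such markers ran from 21471 to 29502 CPM in naive and from 17935 to 23243 CPM in ID8 libraries. Reads in olfactory and vomeronasal receptor genes, a measure of background, ran from 259 to 808 CPM in naive and from 6.47 to 346 CPM in ID8 libraries. WT ID8 3 stood apart, with the least background and with marker genes of dividing cells summing to 3081 CPM against 217 to 669.8 CPM in the other libraries. The labels do not say that libraries of a group came from separate mice, so the p-values below measure the spread between these libraries, which may be technical. The libraries are bulk RNA, in which fewer cells of a type and less RNA per cell cannot be told apart.

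Fcgr2b, Fcgr3, Fcgr4 and Fcer1g lie near each other on mouse chromosome 1 in the GENCODE annotation. The gap is 21.4 kb between Fcgr3 and Fcgr4, 42.4 kb between Fcgr2b and Fcgr4, and 164.6 kb between Fcgr3 and Fcer1g. Fcgr1 lies on chromosome 3 and Fcgrt on chromosome 7. Fcgr2b and Fcgr3 are close relatives: 9.58% of the 50-base windows of the Fcgr3 transcripts, and 2.92% of those of Fcgr2b, occur in both genes. How reads matching both were counted is not given in the sources used here, so a small part of their counts is uncertain. Transcripts of Fcgr1, Fcgr4, Fcer1g and Fcgrt share no such window with another gene. Exons of Fcgr2b overlap 155 bases of Gm38204 on the opposite strand, which had 0 to 5 counts per library.

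The 250 bases before the RefSeq start (build GRCm38.p6) are shown for the 4 genes whose level changed with challenge in WT cells. Of these, Fcgr1 did not pass the test in Tim4KO cells. The bases are given 5′ to 3′ on the strand of the gene. Capitals mark matches, on either strand, to 3 motifs: GAS (TTCNNNGAA), the interferon-gamma activated site, the ISRE core (GAAA, any 2 bases, GAAA), the interferon-stimulated response element, and the PU.1 core (GAGGAA, or TTCCTC on the opposite strand), bound by the myeloid factor PU.1. The windows are chr3:96293970-96294219 (minus strand) for Fcgr1, chr1:171018676-171018925 (plus strand) for Fcgr4, chr1:170976072-170976321 (minus strand) for Fcgr2b and chr7:45103823-45104072 (minus strand) for Fcgrt.
Fcgr1: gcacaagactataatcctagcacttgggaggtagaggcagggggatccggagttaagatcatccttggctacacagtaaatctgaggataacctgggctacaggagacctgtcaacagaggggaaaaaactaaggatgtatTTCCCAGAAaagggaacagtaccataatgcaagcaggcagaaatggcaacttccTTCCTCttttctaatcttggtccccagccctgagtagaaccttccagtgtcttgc
Fcgr4: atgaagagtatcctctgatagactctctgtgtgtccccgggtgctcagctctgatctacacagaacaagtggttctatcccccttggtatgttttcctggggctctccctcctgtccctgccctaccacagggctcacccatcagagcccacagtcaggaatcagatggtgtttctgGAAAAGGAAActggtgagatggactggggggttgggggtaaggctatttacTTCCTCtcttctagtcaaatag
Fcgr2b: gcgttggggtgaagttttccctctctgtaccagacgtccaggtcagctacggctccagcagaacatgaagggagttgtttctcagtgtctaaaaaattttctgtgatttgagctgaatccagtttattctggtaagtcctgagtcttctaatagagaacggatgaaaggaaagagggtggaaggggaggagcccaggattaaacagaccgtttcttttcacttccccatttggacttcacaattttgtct
Fcgrt: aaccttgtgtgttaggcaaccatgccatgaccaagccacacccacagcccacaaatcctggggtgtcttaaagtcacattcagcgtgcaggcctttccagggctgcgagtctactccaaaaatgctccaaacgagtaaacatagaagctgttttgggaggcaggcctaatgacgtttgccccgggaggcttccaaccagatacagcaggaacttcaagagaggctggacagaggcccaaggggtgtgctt
The Fcgr1 window held TTCCCAGAA, a GAS match, 109 to 101 bases before the start, and the PU.1 core 55 to 50 bases before it. In the Fcgr4 window lay GAAAAGGAAA, an ISRE core match, 73 to 64 bases before the start, and the PU.1 core 22 to 17 bases before it. The windows of Fcgr2b and Fcgrt held none of the 3, which says only that these letters are not in them. Fcgr3, whose windows are not shown and which was not called with challenge, also had the PU.1 core. It lay 6 to 1 or 15 to 10 bases before the start, depending on the start used. Of 32851 RefSeq promoter windows of the same length, 7.02% held GAS, 2.98% the ISRE core and 23.3% the PU.1 core. No match overlapped another, and a match is a description of the sequence, not evidence of binding.

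Levels are given as CPM scaled by the TMM method (trimmed mean of M), and levels of different genes are compared as CPM per kilobase of exon. On that scale the gamma chain and Fcgr3 were by far the most abundant of the 6 in every group. In WT naive cells Fcer1g stood at 784 ± 55.0 CPM per kb and Fcgr3 at 733 ± 133 (SD, n = 3), and their libraries overlapped. Fcgrt followed at 154 ± 8.58, then Fcgr4 at 62.7 ± 7.97 and Fcgr2b at 48.8 ± 9.63, whose libraries also overlapped, and Fcgr1 came last at 15.1 ± 1.66 CPM per kb (n = 3). The order was the same in Tim4KO naive cells, where Fcgr4 (61.8 ± 22.8) and Fcgr2b (58.3 ± 12.6) again overlapped. In the ID8 groups Fcgr4 had moved above Fcgrt. WT ID8 libraries held 101 to 208 CPM per kb of Fcgr4 against 54.1 to 92.5 of Fcgrt, and Tim4KO ID8 libraries 118 to 130.4 against 70.2 to 112. Fcgr1 (23.9 to 53.4 CPM per kb) and Fcgr2b (30.0 to 35.7) overlapped in WT ID8 libraries, whereas in Tim4KO ID8 libraries Fcgr1 (18.6 to 25.1) lay below Fcgr2b (27.1 to 33.1).

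**Figure D1:**
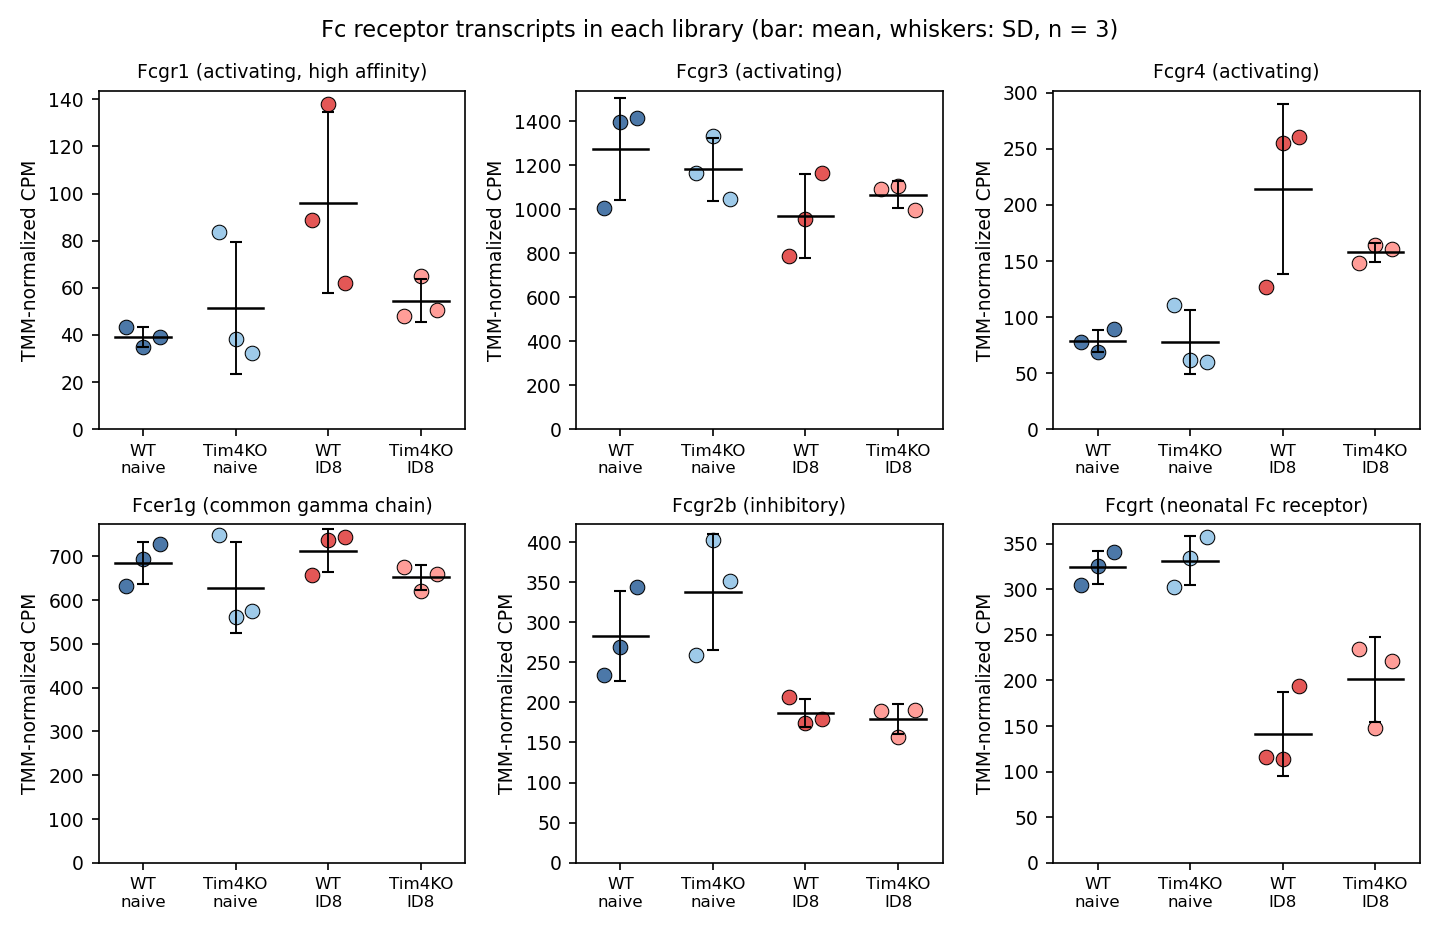
Levels of the 6 Fc receptor transcripts, as TMM-normalized CPM (vertical axis, from 0), in each of the 12 libraries. Points are libraries, the bar is the mean of a group and the whiskers its SD (n = 3). Fcgr4 is higher and Fcgr2b and Fcgrt are lower in every ID8 library than in any naive library of the same genotype, while Fcer1g is level throughout.

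Challenge changed most of the family in WT cells. The activating receptors Fcgr4 and Fcgr1 rose 2.72-fold and 2.46-fold, the inhibitory receptor Fcgr2b fell (1.52-fold lower) and the neonatal receptor Fcgrt fell (2.30-fold lower). The gamma chain and Fcgr3 did not pass the test. Called means here that edgeR's quasi-likelihood test gave an adjusted p (Benjamini-Hochberg, over 15943 tested genes) under 0.05. By that rule 4 of the 6 genes were called, 2 higher and 2 lower, where 31.8% of all tested genes were called, 19.5% higher and 12.3% lower. In 4 of the 6 the 3 WT ID8 libraries did not overlap the 3 WT naive ones, which held for 44.4% of all tested genes. The count was 2 of 6 (Fcgr4 and Fcgrt) without WT naive 3 or WT ID8 2. With so large a part of the transcriptome moving, the count of members is not in itself a result about Fc receptors.

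In Tim4KO cells Fcgr4 rose 2.03-fold, Fcgr2b fell (1.88-fold lower) and Fcgrt fell (1.65-fold lower). These 3 of the 6 genes were called, 1 higher and 2 lower, against 16.6% of all tested genes (11.5% higher and 5.06% lower), and the same 3 were without overlap, which held for 41.7% of all tested genes. All 3 were also called in WT cells in the same direction, as 13.2% of all tested genes were. WT and Tim4KO comparisons shared no library, but both took their estimate of spread from 1 fit of all 12 libraries. The Tim4KO count was 1 of 6 (Fcgr2b) without Tim4KO naive 2, Tim4KO naive 3, Tim4KO ID8 2 or Tim4KO ID8 3.

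Fcgr4 encodes the receptor for IgG2a and IgG2b of intermediate affinity. It stood at 77.8, 69.2 and 89.1 CPM in WT naive libraries 1 to 3 and at 127, 255 and 261 CPM in WT ID8 libraries. In Tim4KO cells it was at 111, 62.2 and 60.0 CPM in naive and at 148, 164 and 161 CPM in ID8 libraries. Every ID8 library lay above every naive library, with WT ID8 1 the lowest of the challenged and Tim4KO naive 1 the highest of the naive. The change was 1.44 on the log2 scale in WT (SE 0.27, edgeR adjusted p = 0.00207) and 1.02 in Tim4KO (SE 0.27, edgeR adjusted p = 0.0236). The WT call held without any single library, while the fit with background reads as a covariate gave 1.14 with an edgeR adjusted p of 0.0505. The Tim4KO call was lost without Tim4KO naive 2, Tim4KO naive 3, Tim4KO ID8 1, Tim4KO ID8 2 or Tim4KO ID8 3 (edgeR adjusted p of 0.112, 0.11, 0.0603, 0.0788 and 0.0673), with the log2 change between 0.87 and 1.38 over all 6 such fits.

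Fcgr1 encodes CD64, the high-affinity receptor that binds single IgG molecules. Its levels in WT naive libraries were 43.4, 34.8 and 39.0 CPM, and in WT ID8 libraries 88.6, 138 and 62.0 CPM. Tim4KO naive libraries held 83.7, 38.3 and 32.2 CPM, and Tim4KO ID8 libraries 48.0, 65.0 and 50.7 CPM. The WT groups did not overlap, while in Tim4KO cells the first naive library exceeded all 3 ID8 libraries. The WT change was 1.30 (SE 0.37, edgeR adjusted p = 0.0232), and that in Tim4KO cells was 0.08 (95% interval -0.73 to 0.89, edgeR adjusted p = 0.903). Without Tim4KO naive 1 the Tim4KO value was 0.65 (edgeR adjusted p = 0.143). The WT call was lost without WT naive 1, WT naive 2 or WT naive 3 (edgeR adjusted p of 0.0542, 0.0723 and 0.0721) and without WT ID8 2 (log2 change 0.97, edgeR adjusted p = 0.0782).

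Fcgr3 encodes the low-affinity activating receptor, the most abundant receptor for IgG in these cells. WT naive libraries held 1005, 1398 and 1413 CPM and WT ID8 libraries 786, 954 and 1166 CPM. Tim4KO naive libraries held 1166, 1332 and 1045 CPM and Tim4KO ID8 libraries 1094, 1107 and 995 CPM. The groups overlapped in both genotypes. The log2 change was -0.40 in WT (SE 0.17, edgeR adjusted p = 0.0755) and -0.15 in Tim4KO cells (SE 0.16, edgeR adjusted p = 0.582). The WT value lay near the threshold: it passed with upper-quartile scaling (-0.64, edgeR adjusted p = 0.00577), with a minimum mean count of 50 (-0.57, edgeR adjusted p = 0.0109), with background reads as a covariate (-0.72, edgeR adjusted p = 0.00878), in DESeq2 (-0.44, adjusted p = 0.0312) and without WT naive 1 or WT ID8 3 (both -0.53, edgeR adjusted p of 0.0354 and 0.0226). It was negative in every fit run.

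Fcer1g encodes the signalling chain that the 3 activating receptors need at the cell surface. WT cells held 633, 695 and 728 CPM when naive and 657, 738 and 745 CPM after challenge. Tim4KO cells held 748, 562 and 575 CPM when naive and 677, 619.9 and 659.7 CPM after challenge. The groups overlapped in both genotypes. The log2 change was 0.05 in WT (95% interval -0.22 to 0.33, edgeR adjusted p = 0.77) and 0.05 in Tim4KO cells (95% interval -0.23 to 0.33, edgeR adjusted p = 0.822). Its sign depended on the scaling, being -0.19 in WT with upper-quartile factors.

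Fcgr2b encodes the inhibitory receptor. WT naive libraries held 234, 269.5 and 344 CPM and WT ID8 libraries 207, 174 and 179 CPM. Tim4KO naive libraries held 259, 402 and 351 CPM and Tim4KO ID8 libraries 189.7, 157 and 191 CPM. Every ID8 library lay below every naive library. The change was -0.61 in WT (SE 0.17, edgeR adjusted p = 0.016) and -0.91 in Tim4KO cells (SE 0.17, edgeR adjusted p = 0.00259). The Tim4KO call held in every fit run, while the WT call was lost without WT naive 3 (-0.42, edgeR adjusted p = 0.11), without WT ID8 2 (-0.53, edgeR adjusted p = 0.071) and once background reads were a covariate (-0.62, edgeR adjusted p = 0.0537). B cells also express Fcgr2b, and the summed level of 10 of 10 B cell markers was 12.8 to 29.3 CPM in naive and 4.38 to 11.2 CPM in ID8 libraries. Cd79a, a chain of the B cell receptor, lay between 0.858 and 2.98 CPM, against 157 CPM or more of Fcgr2b in every library. Their part in the fall of Fcgr2b was not tested.

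Fcgrt encodes the heavy chain of the neonatal Fc receptor, which pairs with beta-2 microglobulin. In WT cells it stood at 305, 326 and 341 CPM when naive and at 116, 114 and 194 CPM after challenge. In Tim4KO cells it was at 303, 334 and 357 CPM in naive and at 235, 148 and 221 CPM in ID8 libraries. Every ID8 library lay below every naive library, and in WT cells WT ID8 3 was the highest of the 3. The change was -1.20 in WT (SE 0.20, edgeR adjusted p = 0.000687) and -0.72 in Tim4KO cells (SE 0.20, edgeR adjusted p = 0.0255). The WT call held in every fit run. The Tim4KO call was lost without Tim4KO naive 2, Tim4KO naive 3, Tim4KO ID8 2 or Tim4KO ID8 3 (edgeR adjusted p of 0.0887, 0.132, 0.186 and 0.053). B2m, the partner chain, averaged 2761 ± 322 CPM before and 2872 ± 632 CPM after challenge in WT cells (n = 3 each, log2 change 0.05, edgeR adjusted p = 0.857).

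Markers of other cells with Fc receptors were summed in each library. Those of natural killer cells, which carry Fcgr3, summed to 2.12 to 4.68 CPM over all libraries (8 of 8 found). Neutrophil markers, 10 of 10 found, summed to 176 to 257 CPM in naive and 72.3 to 115 CPM in ID8 libraries. Csf3r made up most of that sum and of its fall (167 to 248 CPM in naive and 60.0 to 82.8 CPM in ID8 libraries). S100a8 went the other way, at 4.38 to 7.35 CPM in naive and 9.12 to 24.8 CPM in ID8 libraries, Retnlg reached 1.85 and 11.9 CPM, and Ly6g had at most 4 counts. Markers of monocytes, small peritoneal macrophages and dendritic cells (12 of 12 found) summed to 270.3 to 527 CPM in naive and 115 to 403 CPM in ID8 libraries. Cd74, H2-Ab1 and H2-Aa were the highest of them, with Cd74 at 114 to 266 CPM in naive and 44.3 to 232 CPM in ID8 libraries. Cd209a was lower after challenge (24.2 to 39.4 and 3.26 to 6.66 CPM). The monocyte gene Ly6c2 went the other way (0.347 to 1.22 and 0.688 to 3.74 CPM), and Plac8 overlapped (1.6 to 14.1 and 4.47 to 12.7 CPM). Markers of mast cells, which carry Fcer1g and Fcgr3, summed to 78.9 to 147 CPM, 8 of 8 found. Hdc made up most of that sum, at 62.7 to 114 CPM in naive and 72.2 to 143 CPM in ID8 libraries. Other mast cell markers went down: Cma1 from 4.64 to 11.1 CPM in naive to 0.573 to 3.15 CPM in ID8 libraries. Tpsb2 was at 3.45 to 8.51 and 0.344 to 2.0 CPM, and Cpa3 at 3.18 to 13.0 and 0.459 to 3.45 CPM. The part of these cells in the changes of Fc receptor transcripts was not tested.

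**Figure D2:**
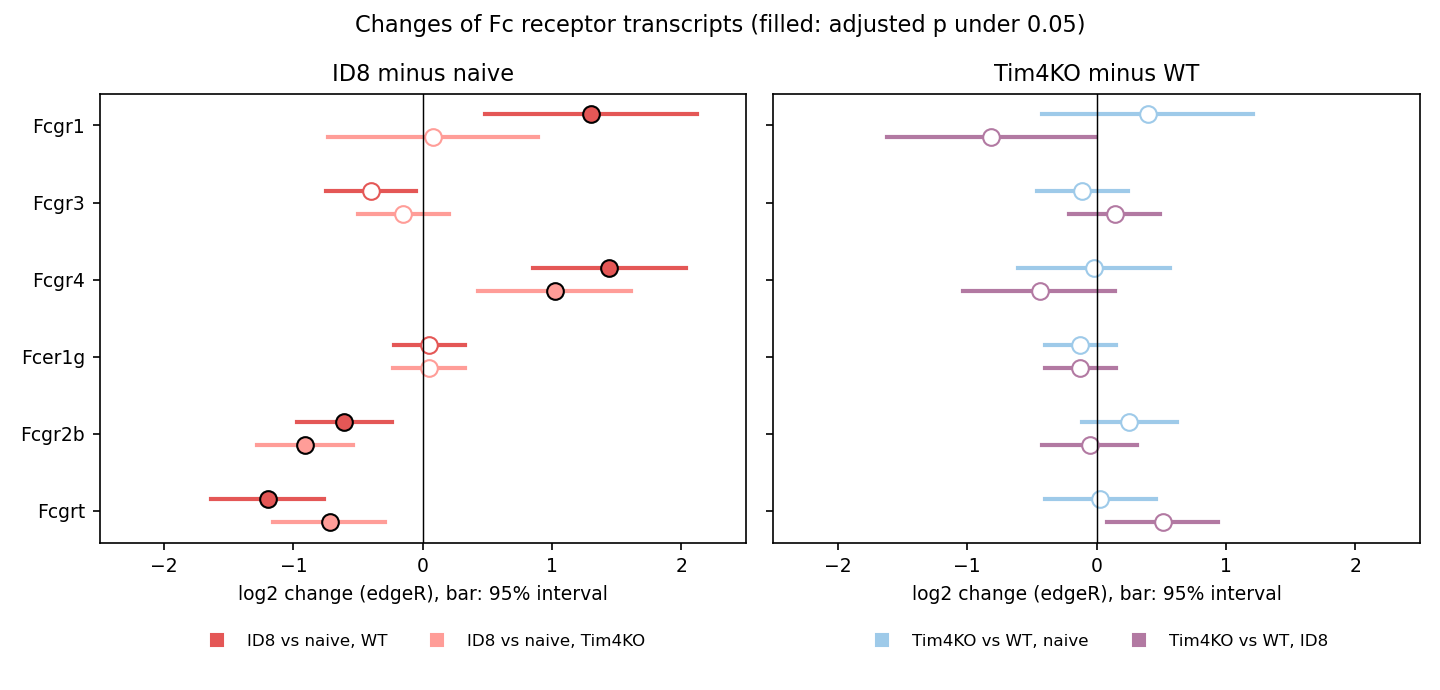
Log2 changes of the 6 genes (horizontal axis) in edgeR, for challenge within each genotype (left) and for genotype within each condition (right). Points are estimates, bars their 95% intervals, and filled points have an adjusted p under 0.05. Challenge raised Fcgr4 (1.44 in WT, 1.02 in Tim4KO) and lowered Fcgr2b and Fcgrt in both genotypes, and no genotype difference is filled.

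The balance between activating and inhibitory transcripts was described within each library as the log2 ratio of each gene's count to that of Fcgr2b, which depends on no scaling between libraries. The ratio of Fcgr4 was -1.59, -1.96 and -1.95 in WT naive libraries and -0.70, 0.56 and 0.55 in WT ID8 libraries. In Tim4KO libraries it was -1.23, -2.69 and -2.55 in naive and -0.36, 0.06 and -0.25 in ID8 cells. All 6 ID8 libraries lay above all 6 naive ones, and the mean rose by 1.97 in WT and by 1.97 in Tim4KO cells.

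The ratio of Fcgr1 to Fcgr2b ran from -3.45 to -1.63 in naive and from -1.98 to -0.33 in ID8 libraries. These ranges overlapped through Tim4KO naive 1 alone, the next highest naive library being at -2.43. Its mean moved from -2.84 ± 0.37 to -1.03 ± 0.62 in WT and from -2.82 ± 1.03 to -1.72 ± 0.39 in Tim4KO cells (SD, n = 3 each). The ratio of Fcgr3 overlapped, at 1.57 to 2.37 in naive and 1.93 to 2.82 in ID8 libraries. That of the gamma chain did not, at 0.48 to 1.53 against 1.67 to 2.09, although Fcer1g itself was level, since Fcgr2b was lower. These ratios rest on values already tested above and were given no test of their own.

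**Figure D3:**
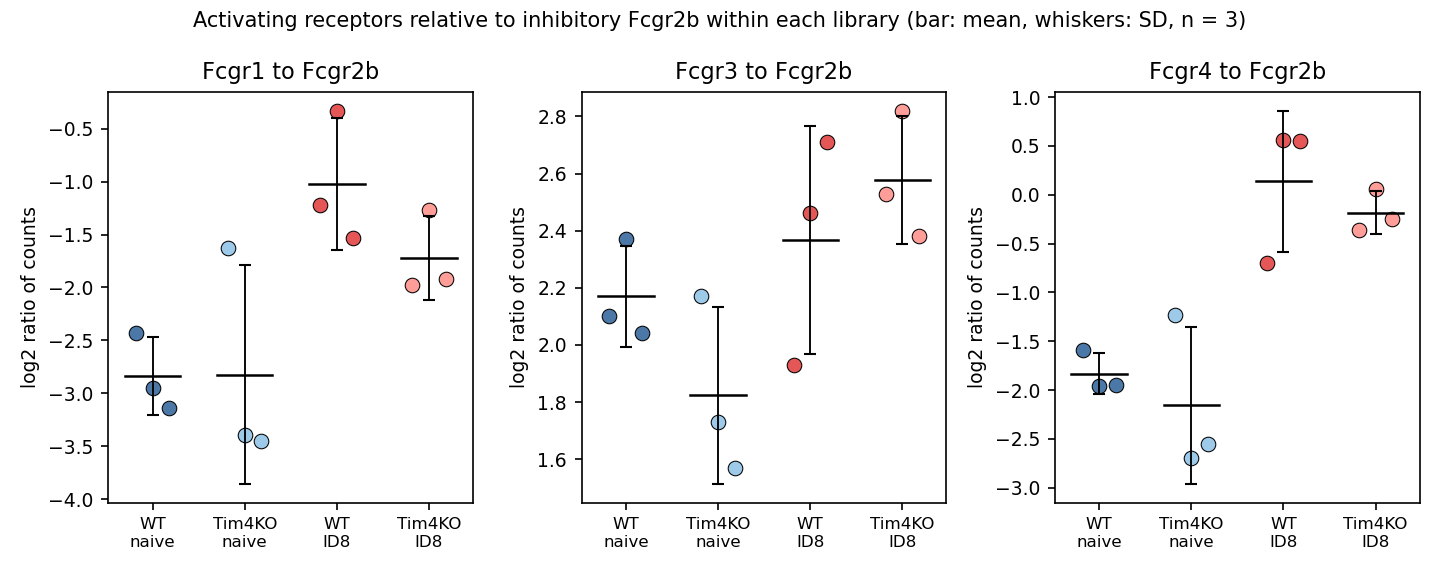
Log2 ratio of the counts of Fcgr1, Fcgr3 and Fcgr4 to those of the inhibitory receptor Fcgr2b (vertical axes, each with its own range) in each library. Points are libraries, the bar is the mean of a group and the whiskers its SD (n = 3). The Fcgr4 ratio is -2.69 to -1.23 in naive and -0.70 to 0.56 in ID8 libraries.

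Among the 4 IgG receptor transcripts, taken per kilobase, Fcgr3 made up 85.1% ± 2.29 in WT naive and 70.0% ± 3.78 in WT ID8 libraries, and 82.9% ± 2.47 and 77.5% ± 1.44 in the Tim4KO groups (SD, n = 3 each). Fcgr4 made up 7.42% ± 1.44 in WT naive and 20.9% ± 4.20 in WT ID8 libraries, and 7.55% ± 2.65 and 15.9% ± 1.15 in the Tim4KO groups. The share of Fcgr1 was 1.81% ± 0.514 and 4.81% ± 2.0 in WT naive and WT ID8 libraries, against 2.41% ± 1.26 and 2.66% ± 0.375 in the Tim4KO groups. The inhibitory receptor accounted for 5.68% ± 0.571 and 4.20% ± 1.32 in WT, where the libraries overlapped (5.06% to 6.18% and 3.30% to 5.72%). In Tim4KO it accounted for 7.15% ± 1.60 and 3.93% ± 0.557, without overlap. Fcgr3 was the largest share in every library, from 65.7% upwards.

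Loss of Tim4 changed none of the 6 genes by the test, in naive or in challenged cells. In naive cells 0 of the 6 were called, where 0.0439% of all tested genes were called, and 0 had an unadjusted edgeR p under 0.05, as 999 of the 15943 tested genes did. The log2 differences, Tim4KO minus WT, ran from -0.13 for Fcer1g to 0.40 for Fcgr1, which was -0.15 without Tim4KO naive 1. The 95% intervals of Fcgr1 (-0.42 to 1.21) and Fcgr4 (-0.61 to 0.57) were the widest of the 6. In challenged cells 0 of the 6 were called against 0.0565% of all tested genes, and Fcgr1 and Fcgrt had an unadjusted edgeR p under 0.05, as did 1935 of the 15943 tested genes. DESeq2 and limma voom also called 0 of the 6 in both comparisons. Fcgr1 averaged 54.6 ± 9.15 CPM in Tim4KO ID8 and 96.3 ± 38.7 CPM in WT ID8 libraries (n = 3 each), a log2 difference of -0.82 (SE 0.36, edgeR adjusted p = 0.408). The ranges, 48.0 to 65.0 and 62.0 to 138 CPM, overlapped. Fcgrt averaged 201 ± 47.1 and 141 ± 45.9 CPM, a log2 difference of 0.51 (SE 0.20, edgeR adjusted p = 0.344). Without WT ID8 3 that difference was 0.82 (edgeR adjusted p = 0.00684), where 997 of 17374 tested genes were called. With background reads as a covariate it was 0.77 (edgeR adjusted p = 0.0243), where 193 of 15943 tested genes were called. Each of these fits called 1 of the 6.

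Whether the response to challenge depended on Tim4 was asked by the interaction, the Tim4KO response minus the WT response. It called 0 of the 6 genes and 0.0% of all tested genes in edgeR, and 0 of the 6 in DESeq2 and in limma voom. Of the 6, Fcgr1 alone had an unadjusted edgeR p under 0.05, as did 1186 of the 15943 tested genes (-1.21, 95% interval -2.36 to -0.07, edgeR adjusted p = 0.668). That of Fcgr4 was -0.42 (95% interval -1.25 to 0.40, edgeR adjusted p = 0.773), that of Fcgr2b -0.31 (-0.83 to 0.21) and that of Fcgrt 0.48 (-0.13 to 1.09). A call of Fcgr1 in WT and none in Tim4KO cells is therefore not shown to be a difference between the genotypes. Without WT ID8 3 the interaction called 368 of 17374 tested genes in edgeR, and still 0 of the 6.

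The kinases and adaptors that carry the activating signal included several that rose with challenge in WT cells. Of 21 such genes, all tested, 7 rose and 0 fell in WT, and 1 rose and 0 fell in Tim4KO cells, with median log2 changes of 0.19 and 0.05 against -0.04 and -0.05 over all tested genes. Of all tested genes 19.5% and 11.5% rose. The WT count was 4 up without WT naive 1 and 2 up with only the compared groups in the fit. The Tim4KO count was 2 up without Tim4KO naive 1 or WT ID8 2 and 3 up without WT ID8 3. Over the alternatives that left out no library, 2 to 7 rose in WT and 1 to 4 in Tim4KO cells, so the contrast between genotypes depended on the setting. Lat2, an adaptor, rose by 0.68 in WT (edgeR adjusted p = 0.00226) and by 0.72 in Tim4KO cells (edgeR adjusted p = 0.00302), and Lcp2, the adaptor SLP-76, by 0.67 in WT (edgeR adjusted p = 0.00863). Syk, the central kinase, averaged 175 CPM before and 201 CPM after challenge in WT cells (log2 change 0.20, edgeR adjusted p = 0.26). With upper-quartile scaling, which moved the median change of all genes to -0.28 in WT and -0.17 in Tim4KO cells, these counts were 3 up and 1 down, and 1 up and 4 down. The calls over all genes moved likewise, from 3105 higher and 1962 lower to 1799 and 3508 in WT, and from 1836 and 806 to 1322 and 1394 in Tim4KO cells.

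Of 16 genes of inhibitory signalling, all tested, 5 rose and 0 fell in WT and 4 rose and 1 fell in Tim4KO cells (medians 0.31 and 0.12), where 19.5% and 11.5% of all tested genes were called higher and 12.3% and 5.06% lower. They were 4 up and 4 down, and 2 up and 1 down, with upper-quartile scaling. In Tim4KO cells 1 rose without Tim4KO naive 2, Tim4KO ID8 1 or Tim4KO ID8 3, and 2 without Tim4KO naive 3 or Tim4KO ID8 2. Lair1, an inhibitory collagen receptor, went from 39.0 ± 10.7 to 103 ± 20.6 CPM in WT (1.40, edgeR adjusted p = 0.000115) and from 40.6 ± 5.98 to 77.2 ± 7.27 CPM in Tim4KO cells (0.92, edgeR adjusted p = 0.00424). Ptpn11, the phosphatase SHP-2, and Sirpa, the receptor for the CD47 signal, rose by 0.63 and 0.60 in WT (edgeR adjusted p of 0.000878 and 0.00327). The call of Sirpa was lost with background reads as a covariate (edgeR adjusted p = 0.0685). Pirb, another ITIM receptor, fell by 0.58 in Tim4KO cells (edgeR adjusted p = 0.0215), a call lost without Tim4KO naive 2, Tim4KO ID8 1, Tim4KO ID8 2 or Tim4KO ID8 3 (edgeR adjusted p up to 0.164). Inpp5d, which encodes SHIP1, the phosphatase that Fcgr2b recruits, was at 129 and 138 CPM on average in WT naive and WT ID8 libraries (0.09, edgeR adjusted p = 0.519).

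Receptors that pair with the gamma chain, together with related adaptors, were split. Of 10, of which 9 were tested, 3 rose and 3 fell in WT and 1 rose and 1 fell in Tim4KO cells (medians 0.34 and -0.23), against 31.8% and 16.6% of all tested genes called in either direction. In WT 1 fell without WT naive 2 or WT ID8 1. In Tim4KO cells 0 to 2 rose and 0 to 1 fell over the fits that left out 1 library, and 0 were called without Tim4KO naive 1, Tim4KO naive 2, Tim4KO ID8 2 or Tim4KO ID8 3. Pira2, which pairs with the gamma chain, rose by 1.34 in WT (edgeR adjusted p = 0.00159) and Cd300ld by 0.58 (edgeR adjusted p = 0.00403), the latter call lost with only the compared groups in the fit or with background reads as a covariate (edgeR adjusted p up to 0.123). Hcst, the adaptor DAP10, went from 59.8 ± 7.48 to 24.3 ± 10.7 CPM in WT (-1.29, edgeR adjusted p = 0.00178) and from 54.2 ± 10.2 to 28.6 ± 4.05 CPM in Tim4KO cells (-0.93, edgeR adjusted p = 0.0203). The Tim4KO call of Hcst was lost without Tim4KO naive 1, Tim4KO naive 2, Tim4KO ID8 2 or Tim4KO ID8 3 (edgeR adjusted p up to 0.131). Tyrobp, which encodes the adaptor DAP12 and was chosen after its values were seen, fell by 0.63 in WT cells (edgeR adjusted p = 0.015), while the gamma chain gene was level. That call was lost without WT naive 2, WT ID8 1 or WT ID8 2 (edgeR adjusted p up to 0.0859).

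A list of 13 genes for other Fc and antibody receptors also held Fc receptor-like genes, such as Fcrls, and B2m, the partner chain of Fcgrt. Only 4 of the 13, B2m among them, passed the filter on low counts. Of these, 1 fell in WT and 0 in Tim4KO cells (medians -0.62 and -0.39), where 12.3% and 5.06% of all tested genes fell. The WT count was 0 without WT naive 3 or WT ID8 2 and 0 to 2 over all fits that left out 1 library. The 9 that did not pass included Fcer1a and Ms4a2, the other chains of the IgE receptor, with at most 10 and 14 counts in a library. The called gene was Fcrls at a low level (in WT cells 2.53 CPM before and 0.289 CPM after challenge on average, -2.91, SE 0.88, edgeR adjusted p = 0.0231). It was not called without WT naive 2, WT naive 3, WT ID8 1 or WT ID8 2 (edgeR adjusted p up to 0.0639), with a minimum mean count of 50 or with background reads as a covariate. Trim21, the cytosolic antibody receptor, measured 24.7 and 26.3 CPM on average in the WT groups (0.08, edgeR adjusted p = 0.774).

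Of 15 transcription factors known to act on Fc receptor genes, 2 rose and 1 fell in WT and 2 rose and 2 fell in Tim4KO cells (medians 0.11 and -0.15). Of all tested genes 31.8% and 16.6% were called, so the WT share lay below that of all genes. In Tim4KO cells 1 rose and 0 fell without Tim4KO naive 2, Tim4KO ID8 1 or Tim4KO ID8 2. Spi1, which encodes PU.1, went from 238 ± 10.3 to 338 ± 4.50 CPM in WT (0.50, edgeR adjusted p = 0.00449). Its WT call was lost with upper-quartile scaling or background reads as a covariate (edgeR adjusted p up to 0.0538). Tfec went from 9.13 ± 1.77 to 26.2 ± 5.39 CPM in WT (1.51, edgeR adjusted p = 7.19e-05) and from 7.62 ± 0.795 to 13.5 ± 0.621 CPM in Tim4KO cells (0.83, edgeR adjusted p = 0.00974). Cebpa fell by 1.16 in WT (edgeR adjusted p = 0.000633) and by 0.74 in Tim4KO cells (edgeR adjusted p = 0.0181), the latter call lost without Tim4KO naive 2, Tim4KO ID8 1 or Tim4KO ID8 2 (edgeR adjusted p up to 0.113). Of all 5 lists, edgeR called 0 genes in the genotype comparisons or in the interaction. DESeq2 called 1 activating and 1 inhibitory signalling gene, 2 gamma-chain partners and 1 transcription factor lower in Tim4KO ID8 than in WT ID8 cells. Without WT ID8 3, edgeR called 2 activating and 1 inhibitory signalling gene lower there, and among gamma-chain partners and among factors 1 higher and 1 lower each. Every other setting called at most 1 gene of a list in a direction in these comparisons.

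**Figure D4:**
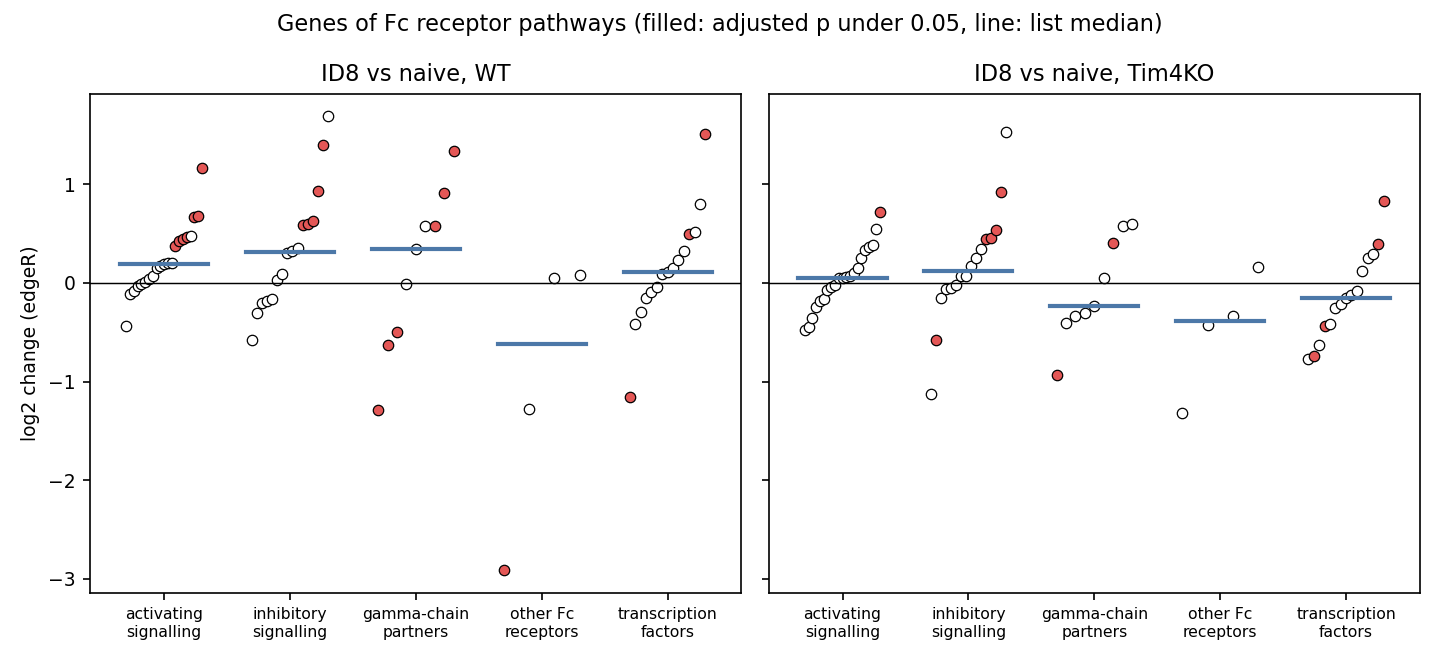
Log2 change with challenge (vertical axis, edgeR) of each tested gene of the 5 pathway lists, in WT (left) and Tim4KO cells (right). Points are genes, filled where the adjusted p is under 0.05, and the line is the median of a list. In WT cells 7 of 21 activating signalling genes and 5 of 16 inhibitory signalling genes are filled above 0, and none of either below it.

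The genes most like each receptor over the 12 libraries were found by Pearson r of log2 CPM among 9633 genes. A high r can carry the difference between naive and challenged libraries, or a likeness in single libraries where a receptor overlapped between them. It is given as a description. For Fcgr1 they were Phf11d (r = 0.97), Nmi (0.96) and Ifit1 (0.96). Ifit1 is an interferon-induced gene. WT cells held 7.08, 6.32 and 8.48 CPM of it when naive and 39.9, 58.1 and 16.1 CPM after challenge, and Tim4KO cells 30.0, 8.75 and 7.16 CPM and 14.0, 13.9 and 16.1 CPM. Like Fcgr1 it was high in Tim4KO naive 1 among the naive libraries and highest in WT ID8 2. For Fcgr4 the nearest were Ly6a (0.99), Mrpl30 (0.97) and Prelid1 (0.97). Ly6a, which encodes Sca-1, ran from 0.560 to 3.02 CPM in naive and from 5.50 to 57.5 CPM in ID8 libraries. It was highest in WT ID8 2 and WT ID8 3, which are also the 2 WT libraries with the most Fcgr4 after challenge. Ifit1 and Ly6a were picked for likeness over these same libraries, so such matches follow from the choice. Fcgr2b was most like Adgb (0.97), Crim1 (0.97) and Tut4 (0.96), Fcgr3 like Arsg (0.96), Tgfbr2 (0.94) and Ppp1r13b (0.93), and Fcgrt like Cyp2ab1, Mxd4 and Pdcd4 (each 0.98). Fcer1g, which hardly varied, had no gene above 0.87 (Pttg1, followed by Tmsb4x and Rps15a at 0.85).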

How the data were processed

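The libraries were made from total RNA of sorted macrophages with the SMART-Seq mRNA LP kit, per the labels' protocols. The values used were the raw counts per Ensembl gene that the authors deposited, read as raw because they are whole and their totals differ between libraries. FastQC and STAR 2.5 are named without a role in the submitters' processing notes, with the build mm10 for 1 library and mm10 and GRCm39 for 11. The counting program, annotation release, strand and multi-mapping settings are not given in the sources used here, so no gene coordinates are printed except those of RefSeq windows.

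Names and exon lengths came from GENCODE vM21 (52029 of 57010 identifiers named). The test was edgeR 4.0.16 (R 4.3.3): filterByExpr (15943 genes kept), TMM factors, 1 mean per group over all 12 libraries, robust glmQLFit with 8 residual degrees of freedom and two-sided glmQLFTest, with Benjamini-Hochberg adjustment over all tested genes. SE is the size of the log2 change over the square root of F. The fit was tested on simulated data. CPM levels used the full library totals, and floors cover counting error only, since no molecular identifiers were used. Background reads were summed over 1714 of 1736 olfactory and vomeronasal receptor genes.

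Genes named were the 6 receptors, Timd4, up to 3 called genes per pathway list and comparison with the smallest p, uncalled list genes with their values, and the 3 genes most like each receptor by r with a prior count of 2 and a mean count of at least 50. Values of some list and marker genes are not reported here. The members and lists were chosen with earlier results of these data known. Replicate numbers come from the titles. Deviations of same-numbered libraries correlated at 0.103, 0.105 and 0.309 between WT naive and WT ID8, where differently numbered pairs reached 0.156. The fit with the number as a block changed no call of the 6 genes in that comparison. Alternatives were DESeq2 1.42.0, limma voom (limma 3.58.1), other scalings and filters, only the groups compared, the replicate block, background reads as a covariate, and leaving out each library. Sequences were read from RefSeq for GRCm38.p6, where all 6 genes had a promoter window.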

Additional observations from a re-analysis of the deposited data

How the results depend on the processing

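Over 9 alternatives with all libraries (8 for the interaction, which a fit of only the compared groups cannot give) and 12 fits that each left out 1 library, the count of called receptor genes in the naive genotype comparison and in the interaction stayed at 0. Between Tim4KO and WT in ID8 cells it was 1 with the background covariate, where 193 of 15943 tested genes were called. There it was 0 to 1 over the fits that left out 1 library, with 997 of 17374 tested genes called without WT ID8 3. In WT challenge it was 2 to 5 and in Tim4KO challenge 1 to 3 over such fits. It was 5 in WT without WT ID8 3, where Fcgr3 was called too, 2 without WT naive 3 or WT ID8 2, and 1 in Tim4KO without Tim4KO naive 2, Tim4KO naive 3, Tim4KO ID8 2 or Tim4KO ID8 3, where the same design has fewer libraries. In all, 563 values for single genes kept direction and side of the threshold, 18 lost a call, 8 gained one and 35 changed sign. No value that changed sign had been called.

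For Fcgrt in the naive genotype comparison the log2 value was -0.02 with upper-quartile scaling and -0.04 with the background covariate (-0.02 to 0.10 leaving out 1 library). In that comparison Fcgr4 ran from -0.36 to 0.14 and Fcgr1 from -0.15 to 0.65 over the fits that left out 1 library. In ID8 cells Fcgr2b was 0.02 with upper-quartile scaling (-0.11 to 0.04 leaving out 1 library), and Fcgr3 ran from -0.04 to 0.29. The WT challenge value of Fcer1g was -0.19 with upper-quartile scaling, -0.12 with a minimum mean count of 50, -0.04 with only the compared groups and -0.05 with the covariate. Its Tim4KO value was -0.06 with upper-quartile scaling and -0.05 with the mean count minimum (-0.01 to 0.21 leaving out 1 library). Fcgr1 in Tim4KO challenge was -0.02 and -0.01 in those same fits (-0.16 to 0.65 leaving out 1 library). The interaction of Fcer1g was 0.00 with DESeq2 factors and in DESeq2, 0.13 with upper-quartile scaling, 0.07 with the mean count minimum, 0.01 in voom and 0.06 with the covariate (-0.11 to 0.13 leaving out 1 library). The cause of these shifts was not tested.

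With the replicate number as a block, Fcgr4 lost its call in Tim4KO challenge (1.01, edgeR adjusted p = 0.0545), and the interaction of Fcer1g was 0.00. The block changed no other call of the 6 genes. Over the 18 same-numbered pairs of libraries the deviations correlated at -0.095 to 0.328, and 6 exceeded 0.1. In the WT challenge comparison WT naive 1 correlated more with WT ID8 2 (0.14) than with WT ID8 1 (0.103). WT naive 2 correlated more with WT ID8 1 (0.156) than with WT ID8 2 (0.105). The numbers are therefore not shown to pair libraries in any comparison. Of 36 checks, a library correlated best with its own number in 14.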

Other observations

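Tim4KO naive 1 had more Fcgr1 (83.7 CPM against 32.2 to 43.4) and more Fcgr4 (111 CPM against 60.0 to 89.1) than the other 5 naive libraries. Ifit1 (30.0 CPM against 6.32 to 8.75) and Phf11d (113 CPM against 43.9 to 50.2) were also high in it, but both were picked for a pattern like that of Fcgr1 over these same libraries. Stat2, chosen after its values were seen, measured 144 CPM in it against 37.8 to 62.7 CPM. Fcgr3 (1166 CPM) and Fcgrt (303 CPM) in that library lay within or close to the range of the other naive libraries.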
